A study of Mus musculus and Homo sapiens with 40 samples.

Results

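The genes examined here were 10 human genes for transcription factors of the C/EBP, myeloid and AP-1 groups: CEBPA, CEBPB, CEBPD, CEBPE, CEBPG, SPI1, RUNX1, GFI1, FOS and JUN. They were chosen by name, and an ATF4 binding site was assigned to a gene when its summit, the base of highest enrichment, lay within the gene record or the 50 kb on either side (hg38). Of the 16305 ATF4 sites on the standard human chromosomes, 22 lay at these 10 loci, and 7 of the 10 genes had at least 1. The sites came from ChIP-seq, in which DNA bound by a protein is recovered with an antibody and sequenced, in KO-52 cells. This human line was derived from acute myeloid leukemia and, according to the study, carries CEBPA mutations on both alleles. The cells received tunicamycin, which blocks protein glycosylation and causes endoplasmic reticulum stress, at 2 µg/mL for 4 h, and were crosslinked with DSG and formaldehyde. There was 1 ATF4 library and 1 input library from the same treatment, with no ATF4 library from cells without tunicamycin. The values below therefore have no replicate check and no test, and the sequencing depth is unknown from the peak list. The other 38 samples of the series were from HPC-7, a mouse hematopoietic progenitor line transduced with the CEBPA isoform p42 or p30 fused to the ERT2 part of the estrogen receptor, each line a GFP-sorted population. Lists of these cells without LPS were used at the end, for mouse counterparts of the human sites. The study's methods describe 4-hydroxytamoxifen given ahead of experiments to move ERT2 fusions into the nucleus, an agent that the sample labels leave out.

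ATF4 is a bZIP transcription factor whose translation rises when the integrated stress response is switched on, as it is under endoplasmic reticulum stress. It binds DNA as a dimer, often with a C/EBP protein, on a composite element in which an ATF part is followed by a C/EBP part. C/EBP proteins are themselves bZIP factors. CEBPA and CEBPE drive granulocytic differentiation, CEBPB and CEBPD respond to inflammation and stress, and CEBPG lacks an activation domain and is known as a frequent partner of ATF4. SPI1 (PU.1), RUNX1 and GFI1 govern myeloid and stem cell programs, and FOS and JUN form AP-1.

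The composite was searched as TGATGCAA on both strands in the 200 bp centred on each summit. The 4 strongest sites of these loci all held it, and they are shown first with the mouse sequence to which each aligned (GRCm39), since the same 8 bases stood in both species. The composite is in capitals. Lengths are 60 bases, or 30 bases at CEBPB, where the site lies in the 3′ UTR. The human pieces are chr1:92516074-92516133 (plus strand), chr20:50192385-50192414 (plus), chr21:34908510-34908569 (minus) and chr19:33374045-33374104 (plus). The mouse pieces are chr5:107897514-107897573 (plus), chr2:167532018-167532047 (plus), chr16:92512530-92512589 (minus) and chr7:34755592-34755651 (minus).
GFI1, human: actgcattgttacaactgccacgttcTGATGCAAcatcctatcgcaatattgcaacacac
Gfi1, mouse: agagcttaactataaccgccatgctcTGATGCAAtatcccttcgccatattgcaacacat
CEBPB, human: ggtttcgaagtTGATGCAAtcggtttaaac
Cebpb, mouse: gtttcgggactTGATGCAAtccggatcaaa
RUNX1, human: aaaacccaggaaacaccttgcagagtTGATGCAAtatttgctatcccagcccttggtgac
Runx1, mouse: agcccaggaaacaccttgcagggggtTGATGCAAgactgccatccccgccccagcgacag
CEBPG, human: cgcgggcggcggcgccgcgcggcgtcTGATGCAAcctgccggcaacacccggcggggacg
Cebpg, mouse: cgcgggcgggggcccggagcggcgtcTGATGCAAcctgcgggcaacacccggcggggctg

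The next set shows what the weaker sites carried. The best FOS site held the composite in human, at chr14:75289995-75290054 (minus strand), and its aligned mouse piece, at chr12:85529698-85529757 (minus), did not. A weak intronic RUNX1 site, at chr21:34795869-34795928 (plus), held it in both species, the mouse piece being chr16:92406546-92406605 (plus). A RUNX1 site at chr21:34999794-34999853 (minus) and the best JUN site at chr1:58755138-58755197 (minus) each differed from the composite by 1 base. Positions are counted from 1 at the first base of TGATGCAA, the composite base is given first, and the 8 bases aligned best are in capitals. The RUNX1 site has T4C and the JUN site T4A.
FOS, human: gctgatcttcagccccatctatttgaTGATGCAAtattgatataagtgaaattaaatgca
Fos, mouse: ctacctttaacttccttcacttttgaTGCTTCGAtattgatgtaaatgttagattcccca
RUNX1 weak site, human: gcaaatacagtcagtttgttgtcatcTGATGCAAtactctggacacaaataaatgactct
Runx1 weak site, mouse: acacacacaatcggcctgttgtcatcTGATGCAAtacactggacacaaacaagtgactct
RUNX1 with T4C: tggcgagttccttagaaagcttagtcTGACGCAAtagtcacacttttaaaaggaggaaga
JUN: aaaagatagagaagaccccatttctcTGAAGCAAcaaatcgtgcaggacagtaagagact

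Among the C/EBP genes, CEBPB and CEBPG each had a site among the 200 strongest of the list, near the start of the gene. At CEBPB (chr20:50190830-50192668, plus strand) the only site spanned chr20:50191987-50192720, a width of 734 bp. Its summit lay 1594 bp downstream of the start, in the 3′ UTR, since the whole gene is 1839 bp long. The fold enrichment over input was 36.3, the −log10 q was 184, and the site ranked 118 of 16305 by p-value. By fold it ranked 332.

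CEBPG (chr19:33373685-33382686, plus strand) was the only gene of the 10 with a site in a promoter, taken as 1000 bp upstream to 100 bp downstream of a protein-coding transcript start. The site was chr19:33373741-33374327, 587 bp wide, with a fold of 49.0, a −log10 q of 160 and rank 183, or 125 by fold. Its summit was 365 bp downstream of the canonical start and 238 bp upstream of the start of another coding transcript of CEBPG, so it counted as a promoter site by the second start and not by the first. The composite was centred 0.5 bp from the summit, the closest of all the composites at these loci.

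CEBPA, the gene that is mutated in this line and lies upstream of granulocytic differentiation, had no strong site. The CEBPA and CEBPG starts are 71.2 kb apart, and their loci overlap by 28850 bp. The only site in the CEBPA locus lay in this overlap, at chr19:33348319-33348625, and was therefore counted for both genes. Its summit was 45937 bp upstream of the CEBPA start (chr19:33299934-33302534, minus strand) and nearer to CEBPG, whose start was 25238 bp away. The fold was 14.0, the −log10 q was 24.9 and the rank was 3483. CEBPD and CEBPE had no site. The site nearest to the CEBPD start was 125.7 kb away (rank 4150, fold 11.8), although CEBPD was the nearest protein-coding start for 3 distant sites. The site nearest to the CEBPE start was 202.9 kb away and weak (rank 14986, fold 5.25), and it was closer to RBM23.

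Of the myeloid regulators, GFI1 had the strongest site of all 10 loci, RUNX1 the most sites and SPI1 none. GFI1 encodes a zinc finger repressor needed for neutrophil development (chr1:92473043-92486925, minus strand). Its best site, chr1:92515576-92516418, was 843 bp wide, the widest of the 22. It had a fold of 54.2, a −log10 q of 233 and rank 52 of 16305, or 83 by fold. The summit lay 29170 bp upstream of the GFI1 start, inside an intron of the neighbouring gene EVI5, and GFI1 was still the nearest protein-coding start. The other GFI1 sites lay beyond the other end of the gene, 31516 and 32088 bp downstream of the start. They were weaker, with folds of 5.85 (rank 11779) and 7.92 (rank 7439).

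RUNX1, the DNA-binding part of core-binding factor (chr21:34787801-36004667, minus strand), had 11 sites. Its gene record spans 1216867 bp, while the canonical transcript spans 261502 bp, so its locus was the 42nd longest of the 20033 protein-coding loci. The best site, chr21:34908128-34908704, was 577 bp wide with a fold of 40.7, a −log10 q of 171 and rank 152, or 232 by fold. It lay in an intron 140749 bp downstream of the canonical start, and at -18763 bp from the nearest coding transcript start, the minus sign meaning upstream. A second strong site, chr21:35540930-35541270, had a fold of 24.2 and rank 1242. It lay in the long part of the gene record, 491830 bp upstream of the canonical start. The other 9 sites ranked between 5306 and 15486, with folds of 4.12 to 10.2, and 3 of all 11 were nearest to CLIC6 and 1 to SETD4.

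SPI1 encodes PU.1, the ETS factor of the myeloid and B lineages. Its locus of 124 kb on chromosome 11 held no ATF4 site and also no copy of TGATGCAA. It was the only one of the 10 loci without the letters: RUNX1 held 47 copies and the others 3 or 4 each. The site nearest to the SPI1 start was 116.9 kb away (rank 3379, fold 10.8), with RAPSN as the nearest start.

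The AP-1 genes had sites outside the genes, those of FOS within the upper 25% of the list by rank and those of JUN near its lower end. FOS (chr14:75278826-75282230, plus strand), an immediate early gene, had 2 sites downstream of the gene. The first, chr14:75289879-75290168, was 11193 bp from the start with a fold of 16.4 and rank 1949, just beyond the strongest 10% of the list, which ends at rank 1631. The second, chr14:75301681-75302037, was 23055 bp from the start with a fold of 9.45 and rank 3577. Both held the composite within 11 bp of the summit.

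JUN (chr1:58776845-58784048, minus strand), the partner of FOS in AP-1, had 3 sites, all weak. They lay 28892 bp and 37636 bp downstream and 32204 bp upstream of the start, with folds of 5.01, 4.77 and 3.59 and ranks 13239, 15278 and 16135. Only the second of these held the composite. The third had the lowest −log10 q of the 22 sites, 2.30, and differed from the composite at 3 bases.

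**Figure D1:**
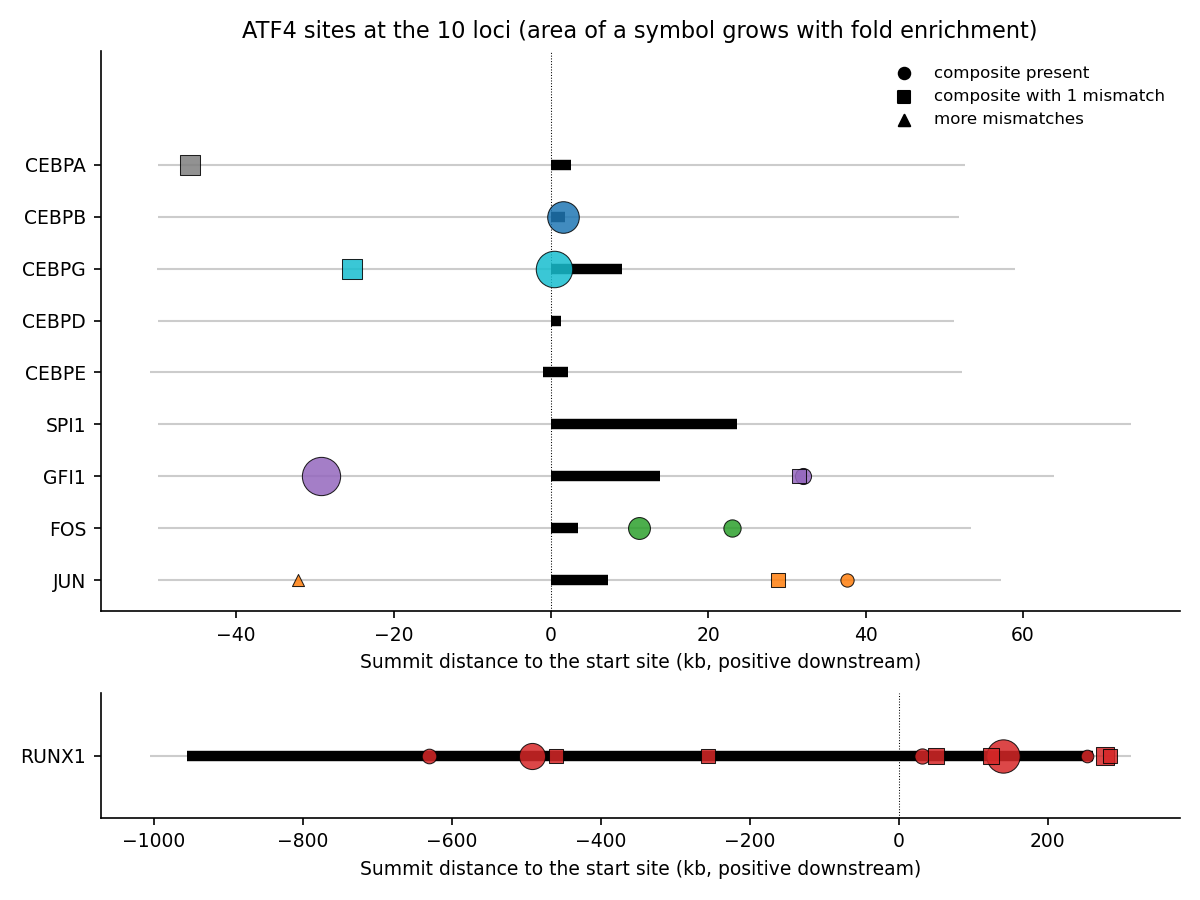
Summit distance of each ATF4 site from the canonical start of the gene in kb, positive in the direction of transcription, with RUNX1 on its own axis. Black bars are gene records, grey lines the 50 kb flanks, and symbol area grows with the fold enrichment. The large symbols are the sites of GFI1 at -29.17 kb, CEBPB, CEBPG and RUNX1, while CEBPD, CEBPE and SPI1 have none.

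Taken by strength, the 22 sites divided unevenly. Of these, 5 were in the strongest 10% of the list: 2 at RUNX1 and 1 each at GFI1, CEBPB and CEBPG. At the other end, 11 were in the weaker 50%. The median fold of the 22 was 7.33 (3.59 to 54.2), close to the 7.81 of the whole list, and the median width was 254 bp (156 to 843) against 229 bp. In the strongest 10% of the list the median fold was 25.7 and the median width 406 bp. The 4 best sites of these loci lay above both of those medians.

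**Figure D2:**
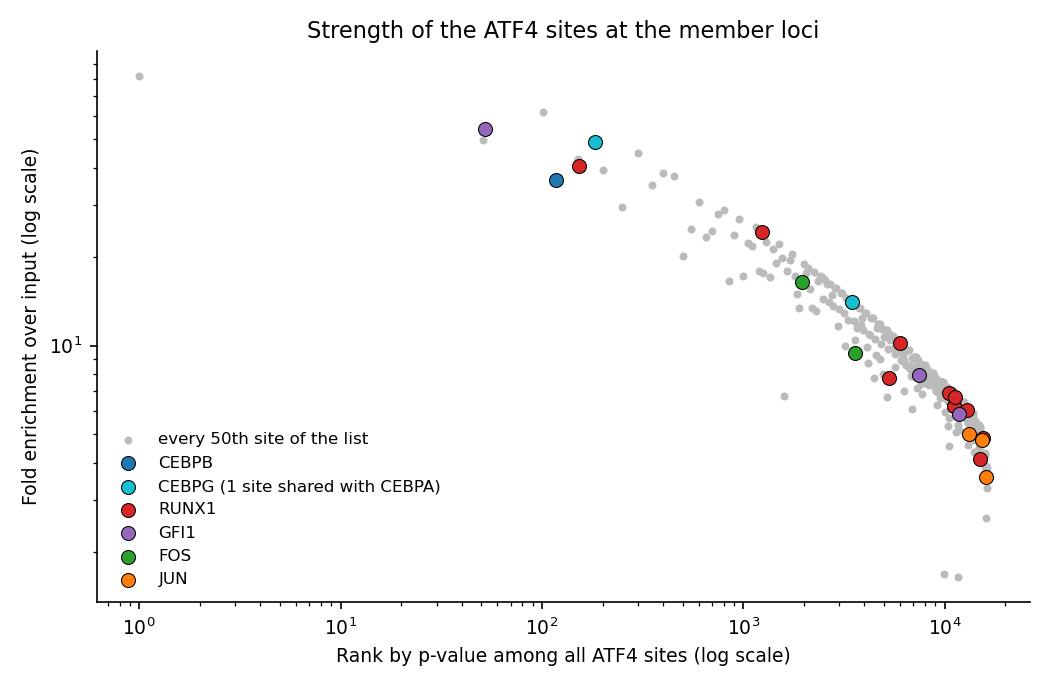
Fold enrichment over input against rank by p-value, both on log scales, for the ATF4 sites of the 7 loci that had one (colours) and for every 50th site of the list (grey). The sites of GFI1, CEBPB, RUNX1 and CEBPG at ranks 52 to 183 stand apart from the remaining 18 sites, which begin at rank 1242.

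These counts are set beside the same rule applied to all 20033 protein-coding genes. A site in the locus was common in the genome: 7 of the 10 genes had one (70%, Wilson 95% interval 39.7 to 89.2, for counting error only) against 57.6% of all genes, and 5 had at least 2 sites against 27.2%. With 100 kb on both sides 7 of the 10 had a site, against 75.2% of all genes. A site of the strongest 10% was held by 4 of 10 (40%, 16.8 to 68.7) against 10.9% of all genes. A site within the gene record was held by 3 of 10 against 24.2%, a promoter site by 1 of 10 against 3.28%, and a site within 2500 bp of a start by 2 of 10 against 7.78%. For 7 of the 10 genes the start was the nearest protein-coding start of some site, against 38% of all genes. Because the 10 genes were chosen by name with earlier results known, no test was made of these differences.

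The share of all loci with a site at least as strong as the best one separates the genes further. It was 0.524% for GFI1, 1.07% for CEBPB, 1.503% for RUNX1, 1.79% for CEBPG, 12.5% for FOS, 20.0% for CEBPA and 50.6% for JUN. The order by density was different. JUN had 2.80 sites per 100 kb of locus, GFI1 2.63, FOS 1.93, CEBPG 1.83, CEBPB 0.982, CEBPA 0.975 and RUNX1 0.835, where the median over all loci was 0.546. For RUNX1 only 0.0849% of loci held as many sites, while 35.4% were as dense. With the extent of the canonical transcript it had 7 sites and 1.94 per 100 kb, above CEBPG. JUN kept 1 site and 0.933 per 100 kb at q under 1e-05, and 1 site and 1.75 per 100 kb with 25 kb on both sides. The order by density therefore rests on these choices, whose densities were computed after the data had been seen. Sites per Mb of chromosome ranged from 3.61 to 7.18 over the autosomes.

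Other genes of related function, from 3 lists that do not overlap with the 10, had the following. Of 36 other bZIP genes, which include possible partners of ATF4, 29 had a site in the locus, 11 a site of the strongest 10% and 8 a promoter site. The best were at NFE2L2, the regulator of the oxidative stress response (rank 14, at -154750 bp from the start and nearest to AGPS), at DDIT3, the CHOP gene (rank 128, nearest to MARS1), and at BATF3 (rank 153). Of 30 other myeloid and progenitor factors, 21 had a site, 8 a strong one and 2 a promoter site, with the best at MYB (rank 309, intronic), CBFB, the partner of RUNX1 (rank 506, nearest to PHAF1), and TAL1 (rank 651, promoter).

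Of 25 known targets of the integrated stress response, 24 had a site, 19 a strong one and 15 a promoter site. The best were at CHAC1 (rank 4), TRIB3 (rank 5, with 3 composites in the 200 bp) and SHMT2 (rank 18), each less than 500 bp from the start. The promoter share of 60.0% in these targets (40.7 to 76.6) compares with 10% in the 10 genes (1.79 to 40.4). Of the 5 strong sites at the 10 genes, only that of CEBPG lay in a promoter.

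**Figure D3:**
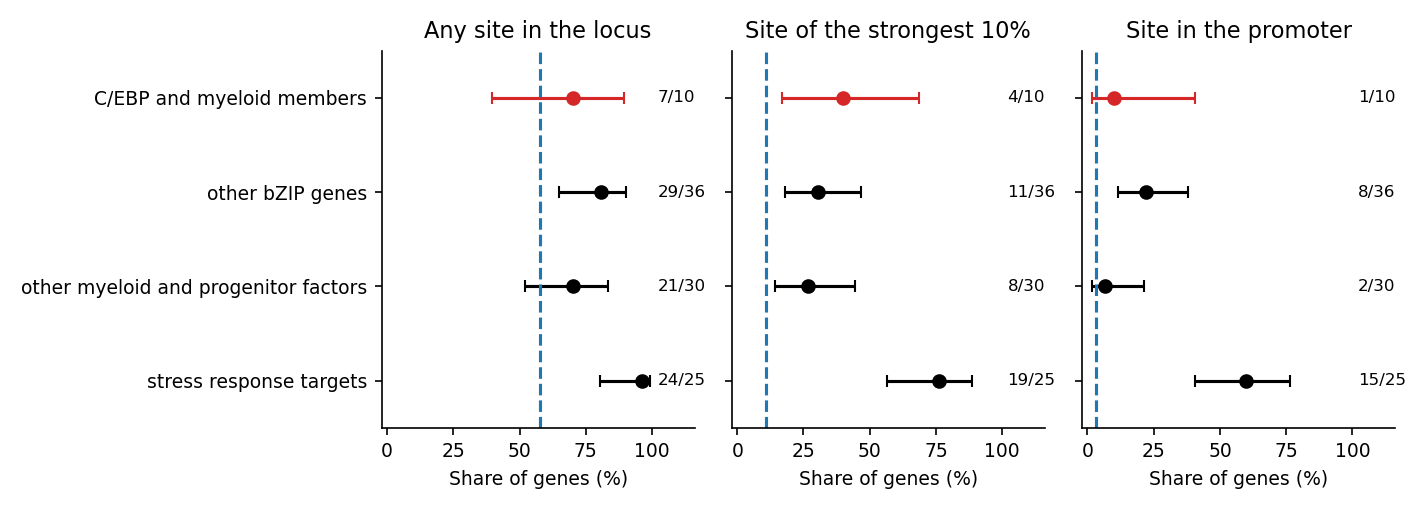
Share of genes (%) with any ATF4 site in the locus, with a site of the strongest 10% and with a promoter site, for the 10 genes (red) and 3 other lists (black). Bars are Wilson 95% intervals for counting error, fractions give genes with a site over genes in the list, and the dashed lines mark all protein-coding genes at 57.6%, 10.9% and 3.28%.

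By place, 1 of the 22 sites was in a promoter, 1 in an exon, 10 in introns and 10 between genes. Over the list the shares were 3.83%, 2.56%, 42.7% and 50.9%. Of the 10 sites counted as intronic, 9 were in RUNX1 and 1 in EVI5. The CEBPG promoter site also lay inside its gene and outside the exons of coding transcripts, but promoters were assigned first.

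The composite was present at 12 of the 22 sites (54.5%), against 65.2% of all ATF4 sites, 77.3% of the strongest 10% and 0.767% of windows 5 kb to either side of the summits. It was found at all 5 strong sites and at 7 of the other 17. A further 9 sites had the element with 1 mismatch, against 28.2% of the list and 15.7% of the control windows. Among those 9, C6A was found 3 times, C6T and T4C 2 times each, and T1C and T4A once each. In the list C6A made up 36.3% and C6T 33.3% of the sites with 1 mismatch, T4C 5.91%, T1C 2.59% and T4A 1.41%. Over the list the median fold was 8.62 with the composite, 6.97 with 1 mismatch and 6.07 with more.

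In the 12 sites with the composite, its centre was a median of 8 bp from the summit and 7 were within 10 bp. Over the list the median was 13.5 bp and 40.5% were within 10 bp. The base that followed TGATGCAA was T in 8 of the 12, C in 3 and G in 1. Over the list T followed in 69.2% of 10632 sites, C in 22.96%, G in 6.70% and A in 1.19%, with median folds of 8.97, 8.12, 7.15 and 7.75.

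**Figure D4:**
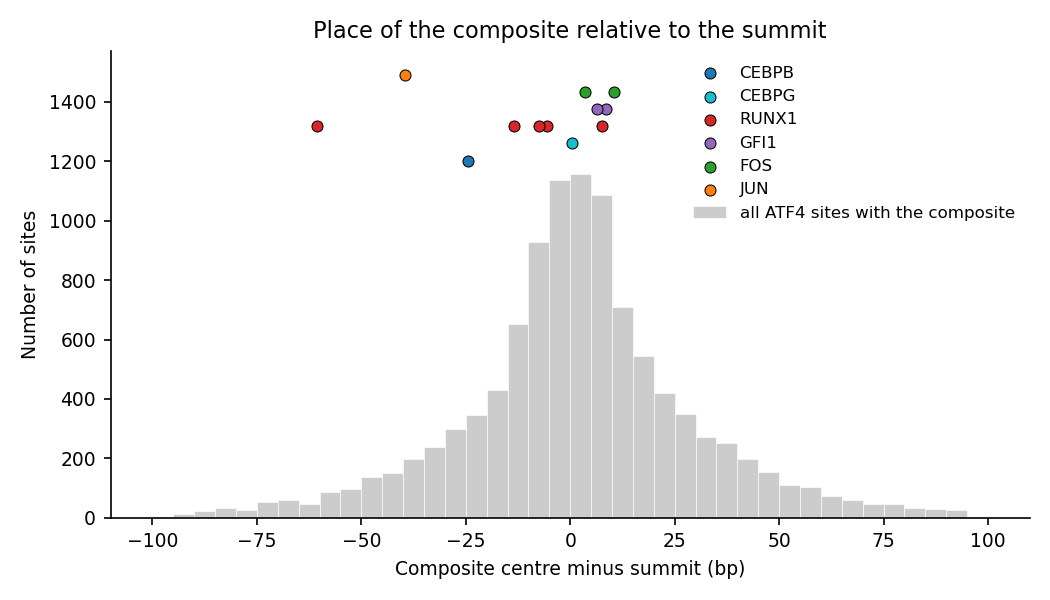
Centre of the composite minus the summit in bp, for all ATF4 sites that held it (grey bars, counts of sites in bins of 5 bp) and for the 12 sites of these loci (points, 1 row per gene, height without meaning). The points spread from the CEBPG site at 0.5 bp to a RUNX1 site at -60.5 bp.

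Most copies of the composite at these loci had no ATF4 site. The 10 loci held 71 distinct copies, and 12 of them (16.9%) lay within 100 bp of a summit, against 9.80% of the 110390 copies in the genome. At CEBPA, CEBPD and CEBPE none of the 3 copies in each locus had a site. At RUNX1 5 of 47 did. Other motifs were rare at the 22 sites: AP-1 (TGANTCA) was found at 1, a RUNX1 site, against 8.38% of the list. CRE (TGACGTCA), the CEBP palindrome (TTGCGCAA), PU.1 (GAGGAAGT) and RUNX (TGTGGTT) were found at 0 of 22, where the list had 0.141%, 0.0797%, 2.45% and 5.80%. These letters were searched on both strands, and their absence says only that they were not in these windows.

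The human sites were then aligned with the mouse locus of the same gene and 100 kb on either side, a step added after the human sites had been seen. As a scale, each site was also aligned with the mouse loci of the other genes. Only the sites of these loci were aligned, so no share over all ATF4 sites stands beside the counts of kept composites. The same holds for the overlaps with mouse lists given further below. The 4 strongest sites and 1 weak RUNX1 site kept all 8 bases of the composite, and their scores exceeded the highest score elsewhere by far: 344 against 32 for GFI1, 224 against 39 for CEBPB, 109 against 32 for RUNX1, 324 against 64 for CEBPG, and 202 against 26 for the weak RUNX1 site. Identity was 78.9% over 755 aligned bp at GFI1, 88.4% over 361 bp at CEBPB, 76.0% over 371 bp at RUNX1, 83.4% over 567 bp at CEBPG and 87.6% over 290 bp at the weak RUNX1 site. The mouse places kept their side of the gene as well, at -25243 bp, 1348 bp, 110540 bp, 338 bp and 216435 bp from the mouse starts.

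The best FOS site scored 67 against 28. It aligned 9134 bp downstream of the mouse Fos start, with 73.9% identity over 161 bp. The 8 bases aligned with the composite had A3C, G5T and A7G, and only those bases were compared. Just after them on the same strand, the mouse piece held TGATGTAA, the form with C6T. In all, 13 of the 22 sites scored higher at the locus of their own gene than at any other. Apart from the 6 sites above, the scores of these 13 reached only 60 and no composite was intact. For the RUNX1 sites at -256255, -459841, -491830 and -629915 bp from the human start the search was limited. It reached only 100 kb beyond the mouse gene, so a counterpart at a like distance upstream could not have been found. Several sites scored higher at another gene's locus, among them both weak GFI1 sites and the site shared by CEBPA and CEBPG. So did the second FOS site (30 against 35) and the best JUN site (21 against 27). Both weak GFI1 sites and the shared site held the letters CCCAGGCTG, found at 3 of the 22 sites. The share was 3.39% of the list and 5.26% of the control windows. The mouse place of the site shared by CEBPA and CEBPG overlapped a site of rank 33564 in the p30 anti-ER list.

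**Figure D5:**
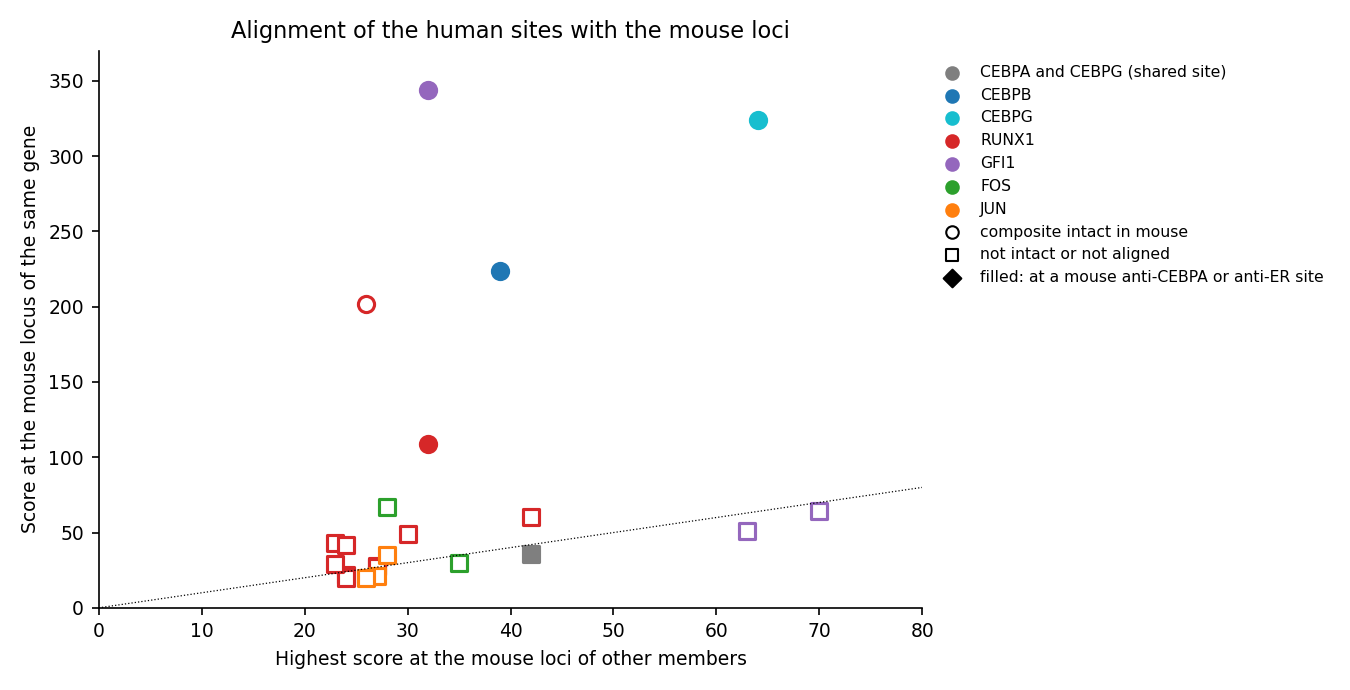
Local alignment score of each of the 22 human sites at the mouse locus of its own gene against the highest score at the mouse loci of the other genes, with equality as a dotted line. Circles are the 5 sites with the composite intact in mouse, squares the others, and filled symbols lie at a mouse anti-CEBPA or anti-ER site. Those 5 circles have scores from 109 to 344.

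The mouse counterparts were read against CEBPA binding in HPC-7 cells, measured with an antibody against CEBPA and with one against the ER part of the fusion, 1 library per line each. The p42 and p30 anti-CEBPA lists held 47517 and 31851 sites, and the anti-ER lists 23248 and 34006. Counterparts of the GFI1 and RUNX1 sites lay at strong sites of all 4 lists. At Gfi1 the anti-CEBPA site ranked 284 in p42 (fold 63.9) and 604 in p30 (fold 43.0), and the anti-ER site 346 (fold 44.3) and 111 (fold 88.1). These 4 summits were between 1 and 8 bp from the composite. At Runx1 the ranks were 592 and 224 with anti-CEBPA (folds 39.6 and 60.6) and 72 and 20 with anti-ER (folds 75.5 and 144.7). There the summits were 24 to 54 bp from the composite.

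The counterparts of the CEBPG and CEBPB sites differed from this. At the Cebpg counterpart, anti-CEBPA sites ranked 45361 in p42 (fold 4.80) and 19725 in p30 (fold 6.98), anti-ER found no site in p42, and a site ranked 9663 (fold 10.7) in p30. The p42 anti-CEBPA summit was 6 bp and the p30 anti-ER summit 9 bp from the composite, while the p30 anti-CEBPA summit was 266 bp away. At the Cebpb counterpart only the p42 anti-CEBPA list had a site, with rank 19080, fold 9.12 and a summit 19 bp from the composite. Elsewhere these loci held stronger anti-CEBPA sites. The best ranked 2858 in p42 and 12399 in p30 at Cebpg, and 3365 and 3008 at Cebpb. The weak RUNX1 site that kept its composite had none of the 4, and neither did the FOS site. H3K27ac, a mark of active regulatory regions called by the authors on 3 pooled samples per line, covered the counterparts of the 4 strongest sites. These were the sites of GFI1, CEBPB, RUNX1 and CEBPG, at ranks 52 to 183. H3K27ac ranked 796 in p42 and 1732 in p30 at Cebpg (folds 86.9 and 58.5). In the same order the ranks were 1701 and 7395 at Runx1, 5329 and 8761 at Gfi1, and 5249 and 8019 at Cebpb. For the fifth strong site (RUNX1, rank 1242) neither line had H3K27ac at the aligned place, but no clear counterpart was found. Its best alignment at Runx1 scored 28, against 27 at another gene's locus. That place was at 263078 bp from the mouse start, where the human site was at -491830 bp. The mark was not particular to strong sites: it also covered the mouse places of 7 weaker sites, at ranks 3106 to 44879 in p42 and 1563 to 55269 in p30. Some of those aligned as poorly as the fifth strong site. The mouse place of the best FOS site, which scored 67 against 28, had no H3K27ac in either line. No order between the lines is read from these ranks, since the lists differ in length (129369 and 139210 sites).

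The genes without an ATF4 site in human were not without CEBPA sites in mouse. All 10 mouse loci had at least 1 site in each of the 4 lists, where 86.7%, 79.6%, 70.5% and 79.6% of mouse protein-coding genes did. Spi1 had 4 and 3 anti-CEBPA sites in p42 and p30 cells, the best at ranks 711 and 881, and 6 anti-ER sites in either, the best at ranks 446 and 141. Cebpe had 4 anti-CEBPA sites in either line, the best at ranks 2504 and 3869, and its best anti-ER sites ranked 189 and 396. Cebpd had 1 anti-CEBPA site in either, with folds of 8.81 and 6.05, and 2 anti-ER sites in either, the best at ranks 8614 (fold 8.72) and 4856 (fold 14.6). Species, cell line, stress and antibody all differ between the human and the mouse lists, and their effects cannot be told apart.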

How the data were processed

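Peak lists were used as deposited. According to the methods of the study, the authors trimmed reads with TrimGalore 0.6.6, aligned them with Bowtie2 to hg38 or mm39, removed duplicates marked by Picard and called narrow peaks with MACS2 against input. The ATF4, anti-CEBPA and anti-ER lists came from 1 library each, and the H3K27ac lists from pooled replicates. The authors deposited, for each peak, the fold enrichment at its summit, a ratio to the local background, together with −log10 p and −log10 q (p-value and q-value of the caller). The highest q in the ATF4 list was 0.048. Read depth is unknown.

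Of 16470 ATF4 peaks, 165 off the standard chromosomes were left out. Sites were ranked by −log10 p within their own list. Loci, places and starts came from GENCODE 44 (human) and 39 (mouse), using protein-coding transcripts. Sequences came from the hg38 and GRCm39 genomes. Alignments were local (match 1, mismatch -1, gap opening -2, gap extension -1). Scripts ran in Python 3.11.15 with pandas 2.3.3, numpy 2.4.6 and pysam 0.24.0, and the counting was tested on simulated sites.

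The 10 genes and the other lists were chosen with earlier results of these data known. Sites described in full were the best-ranked and any promoter site of each locus, and from each other list the 3 genes with the best-ranked sites were named. The LPS and H3K4me1 lists were not used.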

Additional observations from a re-analysis of the deposited data

How the results depend on the processing

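No paired analysis was possible because the values come from 1 library and from no test. Of 125 values recomputed, 93 kept their value or stayed within the limit set for a count. Among the main counts and shares, without the values of single genes, 22 did so and 12 moved. With 25 kb on both sides 44.2% of all genes had a site and with 100 kb 75.2%. It was 52.7% at q under 1e-05, 56.4% with the extent of the canonical transcript and 38.0% by nearest start. The genes with a promoter site were 2 within 2500 bp of a start (7.78% of all genes) and 0 with the canonical start only. For the canonical start the share of all genes was not computed, so that 0 has no background beside it. Allowing 1 mismatch, 21 of the 22 sites and 93.4% of the list held the composite. In windows of 100 and 400 bp the share of the list was 58.0% and 66.1%. These moves follow from the wider or narrower definitions themselves. Measured to the nearest transcript start, the best RUNX1 site turned from downstream to upstream (-18763 bp), as did the best CEBPG site (-238 bp). RUNX1 kept 7 of its 11 sites with the extent of the canonical transcript, and JUN 1 of 3 at q under 1e-05. CEBPA lost its only site with 25 kb. Ranked by fold, the best sites moved to 83 (GFI1), 125 (CEBPG), 232 (RUNX1) and 332 (CEBPB), so CEBPG passed RUNX1 and CEBPB. The 5 sites with the composite intact in mouse were also 5 with stricter alignment scores (mismatch -2, gap opening -3).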
